A study of Saccharomyces cerevisiae with 23 samples.

Results

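The segment from YDR211W to YDR261C is a run of neighboring genes on the right arm of chromosome IV of Saccharomyces cerevisiae. Its members were chosen by name alone, as every array probe whose systematic name lies between those ends, which gave 51 genes with 1 probe each among the 6256 yeast genes and open reading frames on the array. The study set the segment aside because of its levels in 1 isolate, Tup1K270R replicate A. Transcript levels in that isolate were compared with the 7 other isolates, and the response of each gene to hyperosmotic stress was followed in all 8.

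Transcripts of wild type and 3 mutant strains were measured on 23 2-color Agilent arrays, at 0, 30 and 60 min after the addition of 1.2 M sorbitol to yeast complete medium. The mutants were a strain with TUP1 carrying the K270R substitution, a strain with CYC8 carrying K735R, K736R, K738R and K748R (Cyc8-4KtoR), and the double mutant Tup1K270R/Cyc8-4KtoR. Each had replicates A and B, which were separate transformants of BY4741, and the 3 times of an isolate came from the same culture. All isolates, wild type included, shared the alleles his3Δ1, leu2Δ0, met15Δ0 and ura3Δ0, a 6His-FLAG-SMT3 fusion marked with HIS3MX6, a TUP1 copy marked with URA3 in place of tup1Δ and a CYC8 copy marked with LEU2 in place of cyc8Δ. Every group therefore held 2 isolates, and an isolate was 1 clone. Samples of replicate A carried Cy3 against unstressed wild type A in Cy5, samples of replicate B carried Cy5 against unstressed wild type B in Cy3, and 1 array set wild type B over wild type A. Replicate set and dye orientation could not be told apart.

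A cell that gains or loses a stretch of chromosome usually carries transcripts of the genes in it at levels that follow their copy number, and genes whose products sit in shared complexes have been studied for departures from that rule. Hyperosmotic stress in yeast induces a broad transient program through the Hog1 kinase and the general stress factors, while genes for growth and translation fall. Tup1 and Cyc8 form a corepressor that acts at many of these stress genes.

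Values are log2 ratios of a sample over the unstressed wild type of its own replicate set. The deposited ratios went through a spatial detrending in the scanner software that was applied to the Cy3 channel alone on most arrays of replicate A, among them the 0 and 60 min arrays of Tup1K270R replicate A but not its 30 min array. In replicate B it was applied to Cy3 on the wild-type array at 30 min and on the Tup1K270R arrays at 0 and 60 min. On the Tup1K270R replicate B array at 30 min it was applied to both channels. Main values are the deposited ones. Values before that detrending stand beside the main levels and counts, and beside some of the genes whose call or direction differed between the versions. The values before detrending also have a loess normalization in place of the software's dye normalization. A difference between the versions can therefore come from either step, which was not tested. Genes given in the deposited ratios alone can also differ in call or direction before detrending. Of the 51 probes, 48 were well above background on all 23 arrays. The 3 others were YDR215C, which was above it on 11 arrays, YDR220C, on 5, and YDR241W, on 0, so that their ratios had little signal behind them.

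In the direction that the labels give, the genes of the segment were lower in Tup1K270R replicate A than in the other isolates at every time. This direction is opposite to that of the study's methods, which describe the segment as raised in this isolate. In the label direction, GPD1, CTT1, HSP12, STL1 and GRE2, which are known to rise in osmotic stress, were above 0 min at 30 min in all 8 isolates, and in Tup1K270R replicate A their log2 increase was 5.21, 5.01, 7.64, 4.81 and 4.66. That check covers the 30 and 60 min arrays and not the 0 min array. On all 3 arrays of this isolate TUP1 lay above the reference, at 0.65 to 0.97 on the log2 scale, and CYC8 below it, at −2.20 to −1.41. In the other mutant isolates TUP1 spanned −1.11 to 1.05 and CYC8 −0.24 to 1.49, and CYC8 was at −1.27 in wild type B over wild type A. These probes read transcript level, not the substituted codons, and so check no substitution.

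The median level of the 51 genes in Tup1K270R replicate A was −0.78 at 0 min, −0.60 at 30 min and −0.84 at 60 min. The same median in the other isolates lay between −0.08 and 0.16 over all times, so that no other array came near it. Gene by gene, the median difference from the median of the 7 others was −0.80, −0.93 and −0.85 at the 3 times, which are ratios of 0.574, 0.526 and 0.556. Before detrending the differences were −0.85, −0.93 and −0.92, with ratios of 0.554, 0.524 and 0.529. These levels are what set the segment apart in the study, so they are described here without a test. RNA from a whole culture cannot tell a lower level in every cell from a mixture of cells, and no DNA copy number was measured.

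**Figure D1:**
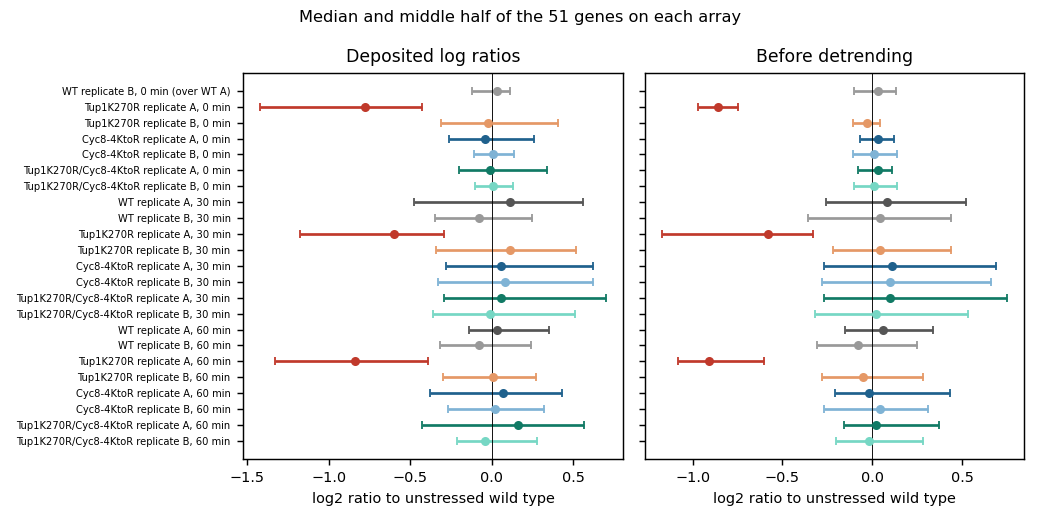
Median (point) and interquartile range (bar) of the log2 ratio to unstressed wild type over the 51 genes on each array, from the deposited ratios (left) and from the values before detrending (right). The 3 arrays of Tup1K270R replicate A have medians of −0.78, −0.60 and −0.84 in the deposited ratios, and every other median lies between −0.08 and 0.16.

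Among the 51 genes, 39 were below all 7 other isolates at 0 min, 43 at 30 min and 42 at 60 min. Over all probes those shares were 32.9%, 10.1% and 15%. At all 3 times together 35 of 51 genes were below all others, against 1.63% of all probes, and 0 were above all others, against 1.6%. A single gene, AMD2, a putative amidase, was above all others at 0 min, where 27.4% of all probes were, and 0 were at 30 and 60 min (11.4% and 17.5%). Before detrending, 48, 49 and 48 genes were below all 7 others (20.9%, 22.5% and 12.4% of all probes), 48 at all 3 times (3.66%), and 0 were above all others at 0, 30 or 60 min or at all 3 (22.2%, 20.6%, 12.3% and 3.72%), AMD2 included.

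The 0 and 30 min arrays of replicate set A shared 1 slide, a reference and a dye orientation. Against only the 3 other isolates of that set, 46 and 48 of the 51 genes were the lowest at these times (39.2% and 23.2% of all probes), with a median difference of −0.94 at both.

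**Figure D2:**
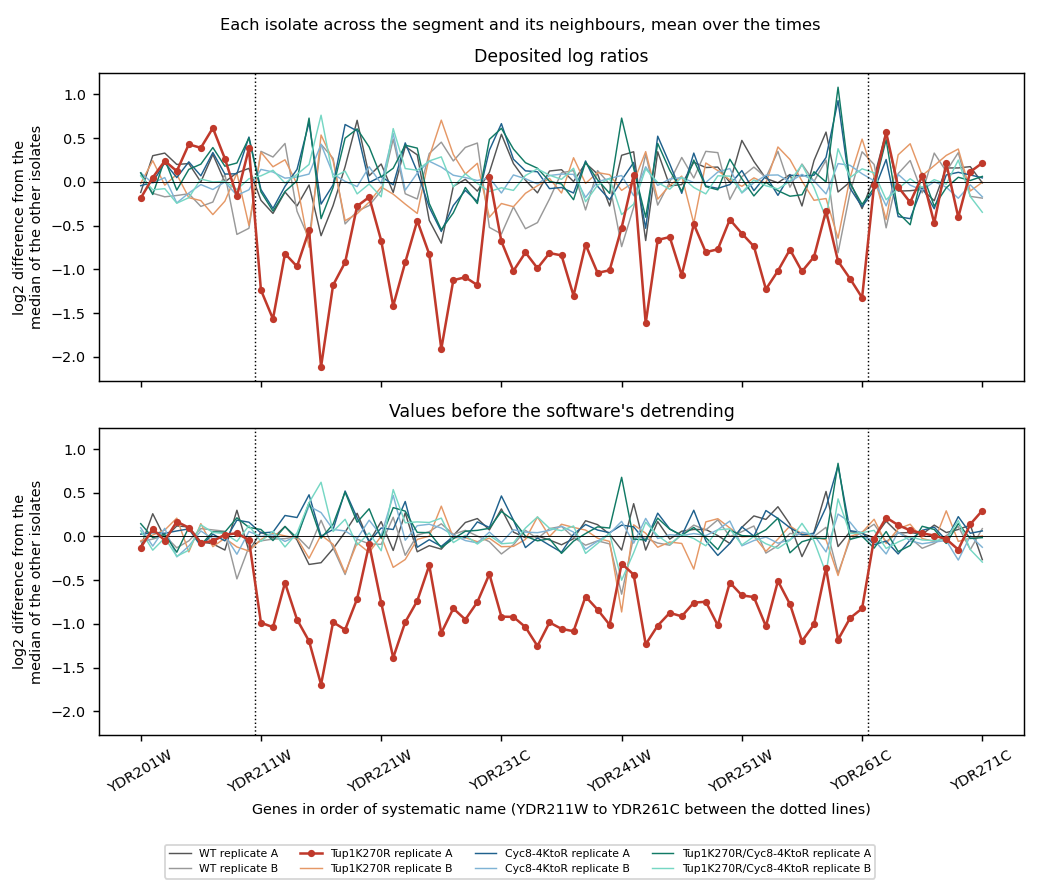
Log2 difference of each isolate from the median of the 7 others, averaged over the times, for the 51 genes between the dotted lines and the 10 probes on either side in order of systematic name (deposited above, before detrending below). Tup1K270R replicate A (red, with points) steps down at both ends of the segment. Outside it the 10 probes on the near side have a median of 0.26 as deposited and −0.01 before detrending, and those beyond it 0.01 and 0.05.

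Both ends of the segment were abrupt. GCD6 (YDR211W), which encodes the catalytic subunit of the translation factor eIF2B, is the first member. Its log2 level in Tup1K270R replicate A was −1.28 at 0 min, −1.61 at 30 min and −1.51 at 60 min. The other isolates had a lowest, median and highest level of −0.17, −0.05 and 0.92 at 0 min, −0.92, −0.58 and −0.21 at 30 min, and −0.40, −0.06 and 0.22 at 60 min, with no overlap at any time. EXG2 (YDR261C), a glucanase of the cell wall and the last member, stood at −2.00, −1.59 and −1.70, below the lowest of the others at each time, which were −0.53, −1.32 and −0.90. Averaged over the times and taken before detrending, the difference from the other isolates was −0.99 for GCD6 and −0.82 for EXG2.

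The nearest probes outside did not share this. Before detrending, the mean difference was −0.04 for CPP2, 0.03 for YDR209C and 0.02 for MSS4 on the near side of GCD6, and −0.02 for YDR262W, 0.22 for DIN7 and 0.13 for AKR1 beyond EXG2. The 10 probes before the segment had a median of −0.01 and a range from −0.13 to 0.17, and the 10 after it a median of 0.05 and a range from −0.15 to 0.29, both wholly above the −0.33 of the least lowered bright member. In the deposited ratios the same neighbors were more scattered, from −0.19 to 0.62 before the segment, with a median of 0.26, and from −0.47 to 0.57 after it, with a median of 0.01.

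The genome was also read in windows of 47 consecutive probes, the number of members whose name is in the R64 annotation. Among 5001 windows the lowest median of the mean difference in Tup1K270R replicate A ran from YDR211W to YDR261C, at −0.92. The segment was set aside for its levels on these same arrays and also set the window length. Its place as the lowest window is therefore a description and no test. Before detrending the lowest ran from YDR209C to YDR259C, at −0.95. The lowest window that held no gene of the segment was at −0.27, or −0.15 before detrending. In the 5 other mutant isolates the lowest windows lay between −0.18 and −0.08, or −0.11 and −0.08 before detrending, and held 0 genes of the segment.

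The size of the difference was similar across most genes. Before detrending, the mean difference over the 3 times of the 48 bright genes had a median of −0.93, a ratio of 0.525, an SD over genes of 0.27 and quartiles of −1.03 and −0.75. Of these genes 34 lay between −1.2 and −0.7. The median SD of a gene over its 3 times was 0.10, against 0.30 in the deposited ratios. The differences at any 2 times correlated at a Pearson r of 0.76 to 0.82 over the genes, and at 0.31 to 0.72 as deposited. These are descriptions over genes of a single culture that share the array reference, and the difference had little relation to probe brightness (Pearson −0.12, Spearman −0.07).

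**Figure D3:**
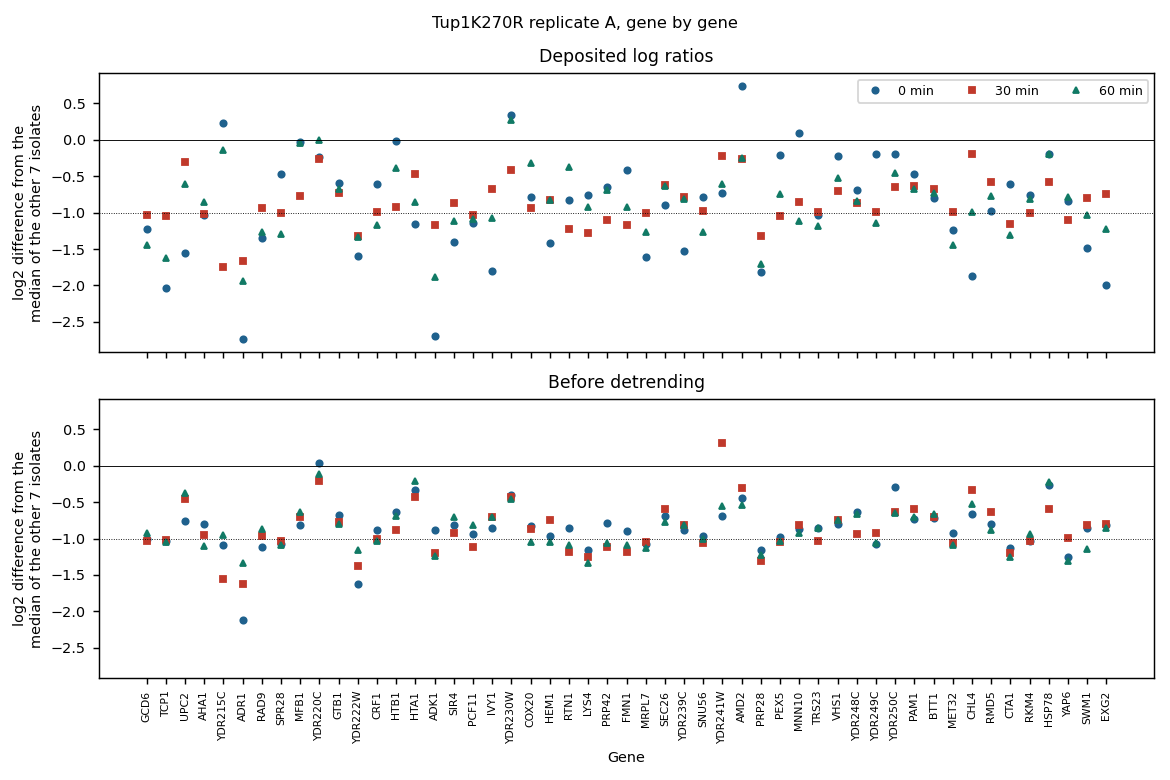
Log2 difference of Tup1K270R replicate A from the median of the 7 other isolates at 0 min (circles), 30 min (squares) and 60 min (triangles) for each of the 51 genes in order (deposited above, before detrending below); the dotted line marks −1. Before detrending most genes average between −1.2 and −0.7, with ADR1 the lowest at −2.12 at 0 min.

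Among the bright genes 4 lay below −1.2 in that mean, namely ADR1 at −1.69, YDR222W at −1.39, LYS4, of lysine synthesis, at −1.25 and PRP28, a splicing helicase, at −1.23. ADR1 encodes the activator of genes for growth on non-fermentable carbon, and its deposited level in Tup1K270R replicate A was −2.53, −0.48 and −0.73 at the 3 times. In the others it spanned −0.01 to 1.23 at 0 min, −0.06 to 1.90 at 30 min and 0.02 to 1.80 at 60 min. ADR1 also differed between the 2 reference cultures, at −0.74 in wild type B over wild type A. YDR222W, a gene of unknown function, was at −1.28, −0.07 and −0.25, against lowest values of −0.10, 0.95 and 0.75 in the others, and the reference cultures differed by −0.08 in it.

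At the other end 4 bright genes were at or above −0.5, namely HTA1 at −0.33, HSP78 at −0.36, YDR230W at −0.43 and AMD2 at −0.44. HSP78, a mitochondrial chaperone of the ClpB family, was the single bright gene that was not below all others at all 3 times before detrending. Its level before detrending was −0.61, 1.54 and 0.42, and the others spanned −0.82 to 0.00 at 0 min, 1.85 to 2.28 at 30 min and 0.14 to 1.43 at 60 min, so that it stood apart at 30 min and overlapped them at 0 and 60 min.

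The histone pair HTA1 and HTB1, which encode H2A and H2B from a shared promoter, has a near-identical second pair in HTA2 and HTB2 outside the segment, and probes may read both copies. HTA1 in Tup1K270R replicate A was at −0.31, −1.03 and −1.08 before detrending, and its differences from the others were −0.34, −0.43 and −0.21. HTB1 was at −0.61, −0.79 and −1.0, with differences of −0.63, −0.89 and −0.69. Outside the segment HTA2 had a mean difference of −0.27 and HTB2 of −0.36, or −0.50 and −0.82 as deposited. How far the signal of each probe comes from the other copy cannot be told apart on these arrays.

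By role, before detrending, the median mean difference was −1.04 for the 2 genes of translation, GCD6 and MRPL7, and −1.0 for the 8 of transcription and chromatin. It was also −1.0 for the 4 of RNA processing and −1.10 for the 2 of the peroxisome and catalase, PEX5 and CTA1. The 7 of mitochondria and metabolism had −0.92, the 5 of the cell cycle, checkpoint and sporulation −0.94, and the 5 of membrane traffic and glycosylation −0.87. The 4 chaperones and folding factors had −0.85, and EXG2 with RMD5, a ubiquitin ligase subunit, −0.79. The 2 histones had −0.54 and the 10 other or unknown genes −0.71. The widest group, transcription and chromatin, spanned −1.69 to −0.53. Some small groups did not overlap, as with RNA processing at −1.23 to −0.95 and the histones at −0.74 to −0.33, and no group was tested against another.

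Among the 8 genes of transcription and chromatin, CRF1, a corepressor of ribosomal protein genes, was at −0.60, 2.20 and −0.02 as deposited, and the lowest of the other isolates were −0.02, 2.68 and 0.87, so that the isolate was the lowest at every time, and its level rose steeply in stress. Its mean difference of −0.92 was −0.50 with normexp background correction. YAP6, a bZIP factor, was at −0.44, −0.34 and 0.12, and overlapped the others at 0 min, where they reached down to −0.94, and met Tup1K270R replicate B at 0.12 at 60 min. Before detrending it was at −0.85, −0.37 and −0.42, below their lowest values of −0.03, 0.43 and 0.00.

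The mean differences of the remaining ones before detrending were −0.53 for UPC2, the activator of sterol genes, −0.82 for SIR4, a silencing protein, and −0.70 for BTT1, a subunit of the nascent polypeptide complex. They were −1.03 for MET32, a factor of sulfur metabolism, and −1.01 for RKM4, a methyltransferase of ribosomal proteins that the list also holds. All 8 were below the 7 others at all 3 times before detrending, and 6 of 8 were in the deposited ratios.

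The lowest mean levels in the isolate as deposited were −1.87 for ADK1, adenylate kinase, −1.85 for PRP28 and −1.76 for EXG2. ADK1 was at −2.69, −1.09 and −1.82, and its value at 30 min was level with the lowest of the others, −1.09. Before detrending ADK1 was at −0.88, −1.11 and −1.19, so that most of its low value at 0 min was absent there. The highest mean levels belonged to CRF1 at 0.53, HSP78 at 0.44 and VHS1, a protein kinase, at 0.20. All 3 are genes that rose in stress.

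Genes elsewhere whose products sit in complexes with members were, as a group, not lowered to this degree. Before detrending, the mean difference of 34 such partners, among them the other subunits of eIF2B, the chaperonin, coatomer and the SIR complex, had a median of −0.03. It ranged from −0.38 for RET3, the zeta subunit of coatomer, to 0.23 for CCT6, a chaperonin subunit. SEC26 and TCP1, the members that share those complexes, were at ratios of 0.621 and 0.488. RET3 and HTB2, the latter at −0.36, reached the least lowered bright members, HTA1 at −0.33 and HSP78 at −0.36. As deposited, the partners had a median of −0.21 and a range from −0.85 to 0.71, which overlapped the members more widely.

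In stress, the segment contained genes that rose strongly and genes that fell. The response was fitted with limma on 22 arrays over 6252 probes with the isolate as a block, as the mean of the 4 strains, and a constant level difference of an isolate drops out of it. At 30 min 15 of the 51 genes rose and 12 fell at an adjusted p of 0.05, against 29.4% and 30.5% of all probes and 59.9% in either direction. At 60 min 10 rose and 5 fell (17.2% and 16%, 33.3% in either), while 18 rose and 17 fell before detrending. From 30 to 60 min 9 rose and 16 fell (24.9% and 27.5%, 52.4% in either). The shares of the segment were close to those of all probes at 30 and 60 min, and the median response of its genes was 0.11 at 30 min, against −0.02 for all probes.

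Of the 51 genes, 7 rose at both times, 8 at 30 min alone and 2 at 60 min alone. A single gene, HTA1, fell at both, 10 at 30 min alone and 4 at 60 min alone, HEM1 moved in opposite directions, and 18 passed at neither time. In wild type alone 9 rose and 9 fell at 30 min (19.8% and 22%, 41.8% in either). Without either double mutant isolate 7 rose and 3 fell there, without either Cyc8-4KtoR isolate 7 and 4, and without a block for the isolate 8 and 1. These alternative counts, and the split of the calls by time above, are given without the share of all probes. They do not set the segment apart from other genes. On the values before detrending 42 genes were called at 30 min, 35 at 60 min, 41 from 30 to 60 min and 35 at 30 min in wild type (84.6%, 69%, 80.3% and 74.5% of all probes). The first 3 counts held all 27, 15 and 25 of the deposited calls in the same direction. Of the 18 genes that passed at neither time as deposited, 14 were called at 1 or both times before detrending, and YDR220C, ADK1, SEC26 and YDR241W were not. Statements below that a gene passed or not refer to the deposited ratios unless the other version is named.

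The calls differed in how far they rested on single isolates. At 30 min 13 of the 27 held without each isolate in turn, and 14 held without a block for the isolate. The 11 genes that held under both were CRF1, HSP78, VHS1, YDR222W, YDR248C, YDR249C, CTA1, PRP42, RAD9, HTA1 and HEM1. The call of TCP1, AHA1, LYS4, PRP28, RMD5, MFB1, IVY1, YDR250C, MRPL7, YDR239C, MNN10, ADR1, PCF11 or EXG2 ended without at least 1 isolate, with an adjusted p of 0.053 to 0.23. Without the block the calls of GCD6, TCP1, AHA1, ADR1, PCF11, IVY1, LYS4, MRPL7, YDR239C, PRP28, TRS23, RMD5 and EXG2 ended.

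At 60 min 8 of the 15 held without each isolate, 11 without the block, and 7 under both, namely CRF1, HSP78, AHA1, YDR222W, HTA1, HEM1 and UPC2. The call of ADR1, HTB1, VHS1, YDR248C, PAM1, BTT1 or YAP6 ended without at least 1 isolate (adjusted p = 0.051 to 0.18), and without the block those of ADR1, YDR248C, BTT1 and SWM1 ended.

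**Figure D4:**
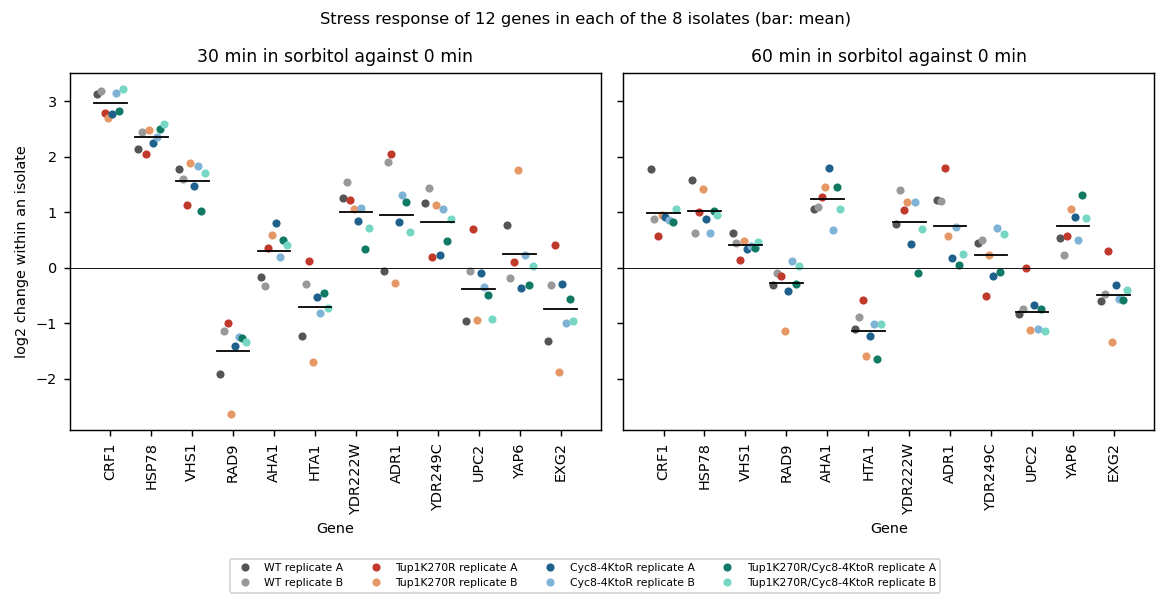
Log2 change from 0 min within each of the 8 isolates (points) at 30 min (left) and 60 min (right) for the 12 genes of largest mean response, deposited ratios, with the mean as a bar. CRF1, HSP78 and VHS1 are above 0 in every isolate at both times, and RAD9 is below 0 in every isolate at 30 min.

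CRF1 had the largest response. Its log2 increase at 30 min was 3.13 and 3.18 in wild type A and B, 2.79 and 2.70 in Tup1K270R, 2.77 and 3.15 in Cyc8-4KtoR, and 2.82 and 3.21 in the double mutant. All isolates rose by a similar amount, with a mean of 2.97 ± 0.12 (SE, adjusted p = 3.9e-09). At 60 min the mean was 0.98 ± 0.12 (adjusted p = 9.4e-05), lower than at 30 min by a difference of −2.00 (adjusted p = 3.1e-07).

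HSP78 followed the same course. At 30 min its increase ran from 2.05 in Tup1K270R replicate A through a median of 2.39 to 2.59 in the double mutant B. Its mean was 2.35 ± 0.13 (adjusted p = 2.4e-08), and 1.01 ± 0.13 at 60 min (adjusted p = 7.7e-05). AHA1, an activator of the Hsp90 ATPase, was late instead, with 0.29 ± 0.11 at 30 min (adjusted p = 0.038, but 0.059 to 0.12 without any 1 of 6 isolates) and 1.23 ± 0.11 at 60 min (adjusted p = 5.4e-06), when it was above 0 in all 8 isolates, from 0.67 to 1.79. Of the 2 other folding genes, TCP1 fell by 0.47 at 30 min (adjusted p = 0.031) and GTB1, of glucosidase II, passed at neither time, though at both before detrending, at 0.21 and 0.25 (adjusted p = 9e-04 and 0.00036).

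Among the genes of the cell cycle and checkpoint, VHS1 rose by 1.55 ± 0.11 at 30 min (adjusted p = 1.9e-07), with isolates from 1.02 to 1.88, and 0.40 ± 0.11 at 60 min (adjusted p = 0.013, but 0.052 to 0.061 without either Cyc8-4KtoR isolate or the double mutant replicate B). RAD9, the adaptor of the DNA damage checkpoint, fell by 1.49 at 30 min (SE 0.16, adjusted p = 7.8e-06) and was near its start at 60 min, at −0.29 (adjusted p = 0.20). The fall ran from −2.63 in Tup1K270R replicate B to −0.99 in Tup1K270R replicate A and was present in all 8 isolates. Before detrending replicates B and A of Tup1K270R were at −1.58 and −1.24, and all 8 isolates lay between −1.67 and −1.21. SWM1, a subunit of the anaphase-promoting complex, rose at 60 min by 0.52 (adjusted p = 0.0021), and SPR28 and CHL4 passed at neither time. Before detrending SPR28 was at 0.48 at 30 min (adjusted p = 2.2e-05) and CHL4 at −0.44 at 60 min (adjusted p = 0.00013).

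Of the 8 transcription and chromatin genes, CRF1 and ADR1 rose at both times, YAP6 rose at 60 min, UPC2 and BTT1 fell at 60 min, and SIR4, MET32 and RKM4 passed at neither, although each passed at 1 or both times before detrending, with changes of −0.28 to 0.27. ADR1 changed by 0.95 ± 0.26 at 30 min (adjusted p = 0.0085), with isolates from −0.27 to 2.05, and by 0.75 ± 0.26 at 60 min (adjusted p = 0.048). Its largest change was that of Tup1K270R replicate A, and without this isolate neither time passed (adjusted p = 0.054 and 0.11). Before detrending ADR1 rose at 30 min in all 8 isolates, from 0.29 to 1.5 with the highest in wild type B and 1.23 in Tup1K270R replicate A, a mean of 0.87 (adjusted p = 3.7e-05). UPC2 fell by 0.79 at 60 min (SE 0.16, adjusted p = 0.0030), with a value below 0 in every isolate but Tup1K270R replicate A, which stood at 0. Before detrending that isolate was at −0.40 and all 8 were below 0. YAP6 changed by 0.75 ± 0.19 at 60 min (adjusted p = 0.0089), and without the double mutant replicate A its adjusted p was 0.058.

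HTA1 fell by 0.71 at 30 min (adjusted p = 0.0060) and by 1.14 at 60 min (SE 0.19, adjusted p = 6e-04), when all 8 isolates were lower, from −1.65 to −0.58. HTB1 fell at 60 min by 0.48 (adjusted p = 0.025). Of the 6 core histone genes outside the segment that were listed, HTA2 and HHF2 fell at both times, HTB2 and HHT2 fell at 60 min, and HHT1 and HHF1 passed at neither. HTA2 was at −1.12 and −1.09, close to HTA1.

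Both genes of translation fell at 30 min, GCD6 by 0.61 (adjusted p = 0.0033) and MRPL7 by 0.38 (adjusted p = 0.0098), and neither passed at 60 min. Before detrending GCD6 was at 0.20 (adjusted p = 0.00085) and MRPL7 at −0.41 (adjusted p = 2.5e-06) at 60 min. The eIF2B partners GCD1, GCD2 and GCD7 fell at 30 min as well, by 0.38, 0.44 and 0.55, and GCN3 was at −0.26 (adjusted p = 0.08). TCP1 was accompanied by CCT3, CCT5, CCT6 and CCT7, which fell at 30 min, and at 60 min CCT2, CCT3, CCT4 and CCT5 rose, by 0.51 to 0.81. TCP1 itself was at 0.27 at 60 min (adjusted p = 0.25, or 9e-05 before detrending with the same size).

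In RNA processing PCF11, of the cleavage factor, and PRP42, of the U1 particle, rose at 30 min by 0.44 and 0.48 (adjusted p = 0.0089 and 0.0010), PRP28 fell by 0.59 (adjusted p = 0.023) and SNU56 passed at neither time. In membrane traffic and glycosylation IVY1 rose by 0.66 at 30 min (adjusted p = 0.010), while MNN10, a mannosyltransferase, fell by 0.47 and TRS23, of the TRAPP complex, fell by 0.39 (adjusted p = 0.0092 and 0.0054).

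Metabolic genes divided. HEM1, the first enzyme of heme synthesis, fell by 0.44 at 30 min (adjusted p = 0.0043) and rose by 0.56 at 60 min (SE 0.11, adjusted p = 0.0020), when it was above 0 in all 8 isolates. MFB1, an F-box protein of mitochondria, rose by 0.71 at 30 min (adjusted p = 0.014), LYS4 fell by 0.34 (adjusted p = 0.049), and ADK1, COX20, FMN1 and AMD2 passed at neither time. Before detrending COX20, FMN1 and AMD2 passed at 30 min, at 0.58, 0.18 and 0.24 (adjusted p = 3.8e-05, 0.0016 and 0.0060). CTA1, the peroxisomal catalase, rose by 0.67 at 30 min (adjusted p = 0.00015) and PEX5, a peroxisomal import receptor, passed at neither time, while before detrending it was at 0.49 and −0.25 (adjusted p = 2.6e-06 and 0.0014). RMD5 rose by 0.29 (adjusted p = 0.028) and EXG2 fell by 0.74 (adjusted p = 0.0092, but 0.059 without Cyc8-4KtoR replicate B) at 30 min.

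Of the 10 other or unknown genes, YDR222W rose by 1.00 ± 0.12 at 30 min (adjusted p = 2.5e-05) and 0.82 ± 0.12 at 60 min (adjusted p = 0.00034), and YDR249C by 0.82 ± 0.13 at 30 min (adjusted p = 0.00018). YDR248C rose at both times by 0.71 and 0.39, and YDR250C by 0.30 at 30 min. YDR239C fell by 0.41 at 30 min and PAM1 fell by 0.43 at 60 min. YDR230W and the 3 dim probes YDR215C, YDR220C and YDR241W passed at neither time.

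The question whether the segment responded differently in the isolate with the low levels was tested in a fit with a term of its own for Tup1K270R replicate A at 30 and at 60 min. With limma, 0 of the 51 genes differed at either time, while 0.96% of all probes did at 30 min and 0.16% at 60 min. At an unadjusted p under 0.05 there were 17 genes at 30 min and 7 at 60 min, among 1378 and 786 of all probes. Before detrending 0% of all probes passed, and 1 gene of the segment was under 0.05 unadjusted at each time, among 292 and 184 of all probes. A lone isolate was compared here and was assumed to vary like the others. Differences of the size of its noise would therefore not have been seen. The study set the segment aside for this isolate's levels at all times, which are the values compared here. The count of 0 is therefore no independent test.

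The change in Tup1K270R replicate A lay within the range of the 7 others for 24 of the 51 genes at each time. Before detrending it did for 39 at 30 min and 35 at 60 min. These counts are given without the share of all probes, so they do not set the segment apart from other genes. Over the 51 genes, the change in Tup1K270R replicate A and the median change of the 7 others correlated at a Pearson r of 0.60 at 30 min and 0.59 at 60 min, or 0.96 and 0.90 before detrending. These points share arrays and reference. The median absolute gap between both was 0.46 and 0.31, or 0.13 and 0.10 before detrending. At 30 min CRF1 changed by 2.79 in the isolate and 2.70 to 3.21 in the others, while its level there was 2.20 against a median of 3.18 in the others.

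**Figure D5:**
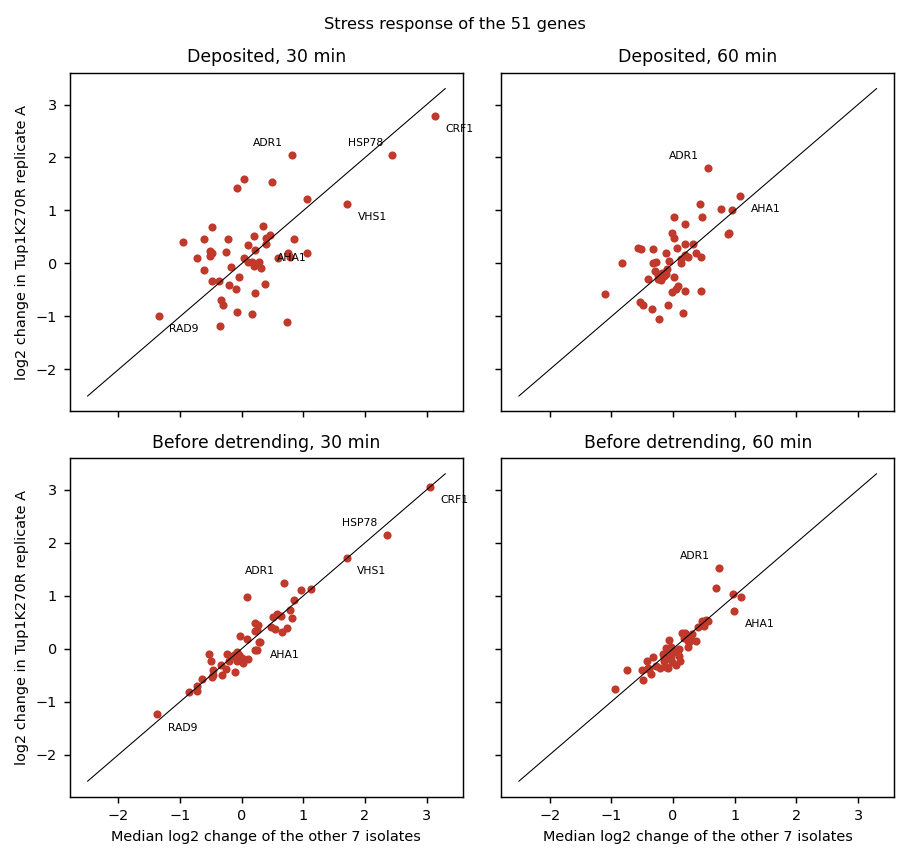
Log2 change from 0 min in Tup1K270R replicate A against the median change of the 7 other isolates for the 51 genes (points), at 30 and 60 min, as deposited (top) and before detrending (bottom); the line marks equal change. Before detrending the genes lie along the line (r = 0.96 and 0.90), with ADR1 above it, and as deposited they are more scattered (r = 0.60 and 0.59).

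In Cyc8-4KtoR and the double mutant, whose isolates played no part in the choice of the segment, 0 of the 51 genes differed from wild type at 0, 30 or 60 min (limma, 16 arrays, 6255 probes), and 0% of all probes did. Unadjusted, between 1 and 6 genes were under 0.05 in a comparison, among 112 to 457 of the 6255 probes. Before detrending 0 genes were called in Cyc8-4KtoR, where 0.21%, 0.0162% and 0.0162% of all probes were at the 3 times, and 0 in the double mutant at 30 and 60 min, where 0.0323% and 0.0162% were. YAP6 had the largest difference at 60 min, while at 0 min YDR215C, a dim probe, was larger in Cyc8-4KtoR and YDR222W in the double mutant. YAP6 was at 1.14 and 0.40 in Cyc8-4KtoR A and B and 1.13 and 0.50 in the double mutant at 0 min, all above the reference, with mean differences of 0.77 ± 0.33 and 0.82 ± 0.33 (adjusted p = 0.87 and 0.61). At 60 min its differences were 1.09 ± 0.46 and 1.54 ± 0.46 (adjusted p = 1 and 0.96), so that none passed.

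YDR222W passed in the double mutant at 0 min before detrending and with the replicate set as a block, but not in the main fit. As 1 of 51 genes, the call before detrending was near the share of all probes. It was at 0.86 and 0.80 in the 2 isolates, a mean of 0.83 ± 0.24 (adjusted p = 0.34), which became 0.89 ± 0.18 (adjusted p = 0.037) before detrending, where 1.15% of all probes were called higher and 1.52% in either direction. With the replicate set as a block it was 0.83 ± 0.15 (adjusted p = 0.029), given without the share of all probes. In Cyc8-4KtoR alone it was at 0.32 and 0.46 (mean 0.39 ± 0.24, adjusted p = 0.87). Whether the mutants differ from each other in this gene was not tested.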

How the data were processed

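Total RNA was hybridized to 23 two-color Agilent yeast arrays. The authors scanned them and used Feature Extraction 10.5.1.1 at default settings, whose deposited log10 ratios (Cy5 to Cy3) include background subtraction, spatial detrending and dye normalization. The deposited intensity columns hold each channel before and after those steps. The deposited series matrix holds log2 ratios, used as an alternative, and 0 columns were left unused.

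Log10 ratios were converted to log2, turned to sample over reference by the dyes in the labels, and each probe is the mean of its 2 spots, leaving out control and outlier spots. Values before detrending are background-subtracted intensities with loess within each array. Levels of Tup1K270R replicate A are given as differences from the median of the 7 other isolates, where an unstressed wild type is 0 by construction. R 4.3.3 with limma 3.58.1 ran the tests, with Benjamini-Hochberg adjustment over all probes at 0.05. Stress fits had the isolate as a block and 8 residual degrees of freedom, the fit for Tup1K270R replicate A had 12, and the mutant fit, without a block, had 8. Because an isolate's 3 times came from the same culture, the isolate pairs them. Deviations of the same isolate correlated at 0.07 to 0.81 (median 0.37), and those of different isolates of set A at −0.08 to 0.83 (median 0.37). As deposited, the same isolate was therefore no more alike by the median than different isolates. Before detrending the medians were 0.54 for the same isolate and 0.42 for different isolates.

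The labels of the double mutant replicate B disagree on its 30 and 60 min times and on the dyes at 0 min, and the titles were used. The members, role lists and partner list were chosen with earlier results of these data known. Named genes are the members called at 30 or 60 min with the 12 largest responses, the 3 highest and 3 lowest levels in Tup1K270R replicate A, HTA1, HTB1, the regulators of transcription, the 3 nearest probes on each side, and members of counts of 5 or fewer. Other members and the partners were given values after these were seen, so that each role is accounted for. Names are those of the array design, and 47 of the 51 were found in the R64 annotation, the 4 not found being YDR220C, YDR230W, YDR241W and YDR250C. Coordinates are left out, since the array design uses an older build than R64. The number of arrays limits the precision.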

Additional observations from a re-analysis of the deposited data

How the results depend on the processing

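The median level of the segment in Tup1K270R replicate A stayed below 0 in every version, but single genes changed direction. The difference of AMD2 from the other isolates at 0 min was 0.74 as deposited and −0.45 before detrending. The mean response at 60 min was −0.15 and 0.20 for GCD6, and −0.18 and 0.27 for MNN10. The count of genes above all others at 0 min was 0 with normexp and loess and before detrending, the latter also on a common scale or within set A. The median level of the isolate was −0.86 before detrending at 0 min, also on a common scale or within set A, −0.87 for bright probes alone, and −0.73 at 60 min with normexp. Before detrending, 42, 35, 41 and 35 genes were called at 30 min, at 60 min, from 30 to 60 min and at 30 min in wild type, where the main fit called 27, 15, 25 and 18. Normexp gave 34, 40 and 33 for the last 3. Without a block for the isolate, that is with no replicate block, 14 genes were called at 30 min, 11 at 60 min, 20 from 30 to 60 min and 9 in wild type. The slide as a fixed block, which left 6 residual degrees of freedom, gave 8 at 60 min and 10 in wild type. As a random block its correlation was −0.0886. With the 30 and 60 min labels of the double mutant replicate B exchanged, the 4 counts were 16, 9, 7 and 9. Calls over all probes moved as well, from 59.9% at 30 min to 84.6% before detrending. The other alternative counts, and those with 1 isolate left out, are given without the share of all probes. They do not tell a shift of the segment from a shift of all probes. The mutant comparisons gave 1 gene, YDR222W, before detrending and 1 with the replicate block (replicate set).

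With 1 isolate left out, the counts ran from 18 to 32 at 30 min, 10 to 18 at 60 min, 21 to 29 from 30 to 60 min and 10 to 22 in wild type. The wild-type count was 11 without either Cyc8-4KtoR isolate and 10 without either double mutant isolate. The isolate and mutant comparisons gave 0 to 0. The isolate comparison could not be run without Tup1K270R replicate A itself. In the fits that leave 1 isolate in a group, it is assumed to vary like the others. Of the alternative values for the mean level difference of ADK1, PRP28, EXG2, VHS1, HSP78, CRF1, HTB1 and HTA1, 42 moved by less than the SD over the times and 22 by more, all below 0. Among the named responses, 294 of the alternative values kept direction and call and 29 lost the call, all of them VHS1 at 60 min, AHA1 at 30 min, ADR1 at both times, YAP6 at 60 min or EXG2 at 30 min. Beyond what the removal of samples itself does, the cause of these shifts was not tested. Alternatives on a common scale or within set A before detrending, and before detrending without a block, were chosen after seeing the data. Signal near background limits YDR215C, YDR220C and YDR241W.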
